A study of Rattus norvegicus with 18 samples.

Results

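The Mas-related G protein-coupled receptors (Mrgpr) are a family of receptors best known from small-diameter sensory neurons. All protein-coding genes whose symbol starts with Mrgpr were taken from the deposited read table, up to the 10 with the most reads. Exactly 10 genes met the rule, of 25678 genes in the table: Mrgpre, Mrgprb4, Mrgprx3, Mrgprf, Mrgprd, Mrgprx1, Mrgprb5, Mrgprb3, Mrgprx2 and Mrgprg, in order of reads. The table places all 10 on rat chromosome 1. The RNA came from rat dorsal root ganglia, the clusters of sensory nerve cell bodies beside the spinal cord, and was sequenced as polyadenylated RNA in 18 libraries, 3 in each of 6 groups. The study asked how Shentong Zhuyu decoction (STZYD), a traditional mixture of plant and animal ingredients, acts in a rat model of neuropathic pain. The labels name the groups by condition (Ctrl, Sham or NPP) and treatment: Ctrl with no further treatment, Ctrl_solvent, Sham_solvent, Sham_herb, NPP_solvent and NPP_herb. NPP is not spelled out in the labels and is taken as the neuropathic pain model, and herb as the decoction. The sources used here do not give the surgery, dose, time or ganglion level, nor the strain, age and number of rats. Whether each library is a different rat is not stated either, so p-values reflect only the scatter among these libraries, part of which may be technical.

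Mrgpr receptors couple to G proteins of the Gq and Gi classes and detect pruritogens, peptides and small metabolites. In the dorsal root ganglion several of them mark nonpeptidergic nociceptors and itch neurons, whose identity depends on the transcription factor Runx1, and Mrgprd, the receptor for beta-alanine, is the classical marker of the nonpeptidergic class in rodents. Others in the family lie outside this pattern: the human receptor MRGPRX2 and its rodent counterparts act on mast cells, and Mrgprf is better known from smooth muscle and other non-neuronal tissue.

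Libraries held between 18.2 × 1e6 and 50.3 × 1e6 reads (median 28.4 × 1e6). All 12 general neuronal markers of a fixed list were detected in every group and summed to between 18000 and 23100 CPM (counts scaled to library size after TMM normalization) per library. In NPP_solvent against Sham_solvent, 14 of 14 genes known to respond to nerve injury had a higher fitted mean, against 8750 of 17043 over all genes. Their median log2 fold change was 1.06, against 0.01 over all genes. Of the 14, 3 had an unadjusted p under 0.05 (5.67% of all genes) and none an adjusted one. The same list had 9 of 14 higher in NPP_solvent against Ctrl_solvent (median 0.18) and 13 of 14 higher in Ctrl_solvent against Ctrl (median 1.13), and its mean centred level was higher in Ctrl_solvent replicate 3 (1.62) than in any NPP_solvent library (0.04 to 1.43). The edgeR quasi-likelihood test, fitted once on 17043 genes, called no gene in any of 8 comparisons at an adjusted p under 0.05. Reads of 4 Y-linked genes set 2 libraries apart: Ctrl replicates 2 and 3 had 1.55 and 4.83 CPM, against 128 to 173 CPM in the other 16. In bulk tissue, fewer cells of a type and less RNA per cell cannot be told apart.

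Levels were compared between genes on the deposited FPKM (fragments scaled to transcript length and library size), which adjusts for transcript length. Mrgprb4, a receptor that in mice marks a small set of hair-skin afferents, had the highest level, 32.4 ± 4.49 FPKM (SD over 18 libraries). Mrgpre, an orphan receptor reported to associate with Mrgprd, followed at 10.8 ± 1.09 FPKM, and Mrgprx3, the rat gene also listed as Mrgpra, at 9.17 ± 1.73 FPKM. Mrgprb4 was above Mrgpre in 18 of 18 libraries and their ranges did not overlap, whereas Mrgpre exceeded Mrgprx3 in only 14 of 18.

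Mrgprd reached 4.45 ± 1.97 FPKM and Mrgprf 3.47 ± 0.617 FPKM. These neighbours in the order did not separate beyond their spread: Mrgprd was the higher of the pair in 11 of 18 libraries. Mrgprx1, whose other names in the reference table are MrgC and Snsr1, had 2.05 ± 0.769 FPKM and lay under Mrgprf in 17 of 18 libraries. Mrgprb5 was far below, at 0.211 ± 0.161 FPKM, with no overlap with the range of Mrgprx1. The symbol Mrgprx1 is also an older synonym of Mrgprb2 in that table, so the identity of the row rests on the deposited symbol alone.

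**Figure D1:**
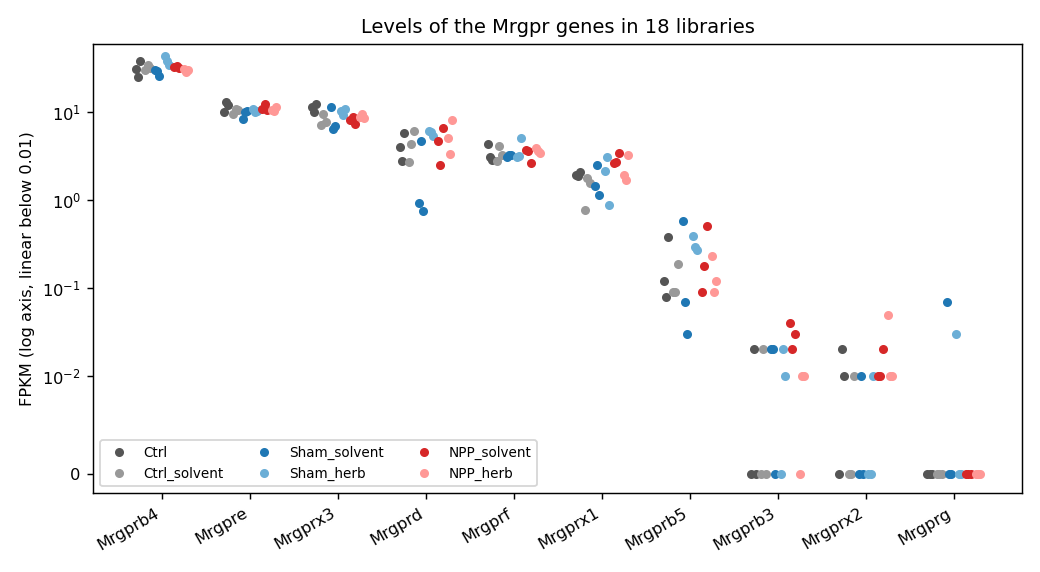
FPKM (log axis, linear below 0.01) of the 10 receptor genes in the 18 libraries, with 1 point per library coloured by group. Mrgprb4 is the highest in every library, Mrgprd spreads most widely among the 6 best-expressed genes, and Mrgprb3, Mrgprx2 and Mrgprg lie at or near 0.

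Mrgprb3, Mrgprx2 and Mrgprg were at the edge of detection and were not tested for differences. Mrgprb3 had 27 reads in all and Mrgprx2 had 21, each with a read in 11 of 18 libraries. Mrgprg had 8 reads, 5 in Sham_solvent replicate 1 and 3 in Sham_herb replicate 1, and none in the other 16. A count of 0 here allows up to 3 reads, or 0.0589 to 0.167 CPM depending on the library, counting error only. Mast cell transcripts were uneven across libraries. Of the defining proteases, Cpa3 ran from 0 to 3.62 CPM, Tpsb2 from 0 to 0.813, Tpsab1 from 0 to 0.544 and Cma1 from 0 to 1.85, while Mcpt10 ran from 0.184 to 17.1, Mcpt1l1 from 0.219 to 6.99, Mcpt8 from 0.0537 to 6.89 and Mcpt9 from 0.0327 to 5. Mcpt2 ran from 0 to 0.271 CPM and was not tested for differences. These proteases, and Kit further on, were named after their values were seen.

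The order changed without length correction. By CPM, Mrgpre came first with 47.8 and Mrgprb4 second with 35.2, since the length implied by the 2 tables was 4450 bases for Mrgpre and 1090 for Mrgprb4. Variation among libraries also differed between receptors. Mrgpre had a coefficient of variation of 9.8% in CPM and a 1.46-fold range, while Mrgprd had 43.7% and a 10.5-fold range, against 8.69% from counting alone. Mrgprx1 varied by 36.8% with 12.4% from counting, and Mrgprb5, with 132 reads in total, by 77.8% with 37.9% from counting.

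In the RefSeq gene order for rat, Mrgprx3, Mrgprx1, Mrgprb4 and Mrgprb5 follow one another with 0 coding genes between them, Mrgprg and Mrgpre are adjacent, and so are Mrgprf and Mrgprd. RefSeq promoter windows (250 bases before to 50 after the gene start, build GRCr8, whereas the read tables rest on mRatBN7.2) were matched for 8 of the 10 genes; Mrgprf and Mrgprd were not matched. Because Runx1 governs this family in nociceptors, the windows were searched on both strands for TGTGGT, the core Runx motif, which reads ACCACA on the other strand. It lay in 3 of 8 receptor windows (37.5%) and in 17.3% of 33469 promoters of the same length. The looser form TGTGGN, which includes the first, lay in 6 of 8 (75%) and in 55.7%. A match describes letters only. In the windows of Mrgprx1 and Mrgprb4 the annotated gene start is the first base of an ATG. It may therefore be the start of the coding part rather than of the transcript. Whether any window lies where transcription begins was not tested. The windows of Mrgprx3 (chr1:106883096-106883395, minus strand) and Mrgprx1 (chr1:106943265-106943564, minus strand) are shown because they are the best-expressed receptors with TGTGGT, in capitals, at positions -205 and -84 in Mrgprx3 and -157 in Mrgprx1 from the gene start. The third receptor with it was Mrgprb3, at -23.
Mrgprx3: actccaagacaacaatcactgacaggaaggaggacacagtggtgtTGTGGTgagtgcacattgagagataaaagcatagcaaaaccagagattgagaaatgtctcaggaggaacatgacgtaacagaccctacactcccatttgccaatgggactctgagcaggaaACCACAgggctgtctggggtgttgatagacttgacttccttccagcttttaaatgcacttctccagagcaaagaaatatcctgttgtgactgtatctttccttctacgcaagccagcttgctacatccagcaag
Mrgprx1: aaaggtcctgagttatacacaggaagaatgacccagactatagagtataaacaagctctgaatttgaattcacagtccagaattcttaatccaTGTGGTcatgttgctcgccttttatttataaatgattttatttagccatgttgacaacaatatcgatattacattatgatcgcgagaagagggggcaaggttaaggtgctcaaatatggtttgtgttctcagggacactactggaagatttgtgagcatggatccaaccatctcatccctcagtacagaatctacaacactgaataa

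The windows of Mrgprb4 (chr1:106989869-106990168, minus strand) and Mrgprb5 (chr1:107095192-107095491, plus strand) are shown because most of their length is a near copy. They aligned over 201 bases with 196 identical (97.5%), and the longest run they share, 64 bases in capitals, starts at -204 in Mrgprb4 and -132 in Mrgprb5. No other pair of receptor windows shared more than 11 bases in a row.
Mrgprb4: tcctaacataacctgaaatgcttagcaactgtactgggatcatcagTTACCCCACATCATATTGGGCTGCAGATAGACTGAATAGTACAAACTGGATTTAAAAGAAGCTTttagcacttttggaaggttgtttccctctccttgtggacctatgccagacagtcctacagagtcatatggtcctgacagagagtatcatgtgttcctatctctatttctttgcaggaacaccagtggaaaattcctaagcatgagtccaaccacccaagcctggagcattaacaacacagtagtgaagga
Mrgprb5: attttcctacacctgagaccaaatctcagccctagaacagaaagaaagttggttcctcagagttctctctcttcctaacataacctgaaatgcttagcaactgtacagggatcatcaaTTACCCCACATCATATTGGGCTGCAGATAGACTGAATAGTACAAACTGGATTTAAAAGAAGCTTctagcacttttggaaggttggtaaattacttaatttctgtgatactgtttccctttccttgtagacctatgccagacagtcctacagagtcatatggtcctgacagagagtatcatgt

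Mrgprb4 had 32.4 FPKM on average and Mrgprb5 0.211. Across libraries their log2 CPM gave the highest of 21 correlations between receptors, r = 0.62 (permutation p = 0.00634, Benjamini-Hochberg adjusted p = 0.133) and rho = 0.66 (p = 0.00344, adjusted p = 0.0722) over 18 libraries. It was 0.56 without the 2 libraries farthest from the median and 0.52 after group means were removed. The sources used here do not give the treatment of reads that match both genes, which leaves the Mrgprb5 count uncertain.

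Among the 6 best-expressed receptors, Mrgprd varied most between libraries. It had 5.05, 2.67 and 6.99 CPM in NPP_solvent replicates 1 to 3, and 1.06, 5.05 and 0.811 CPM in the same order in Sham_solvent. Replicates 1 and 3 of Sham_solvent, with 26 and 24 reads, were the lowest of all 18 libraries, while replicate 2, with 257 reads, lay inside the range of NPP_solvent, so the groups overlapped. The log2 fold change was 1.04 ± 0.56 (SE, edgeR adjusted p = 0.755). It was 2.40 without Sham_solvent replicate 2 (adjusted p = 0.112), 0.71 without replicate 1 and 0.65 without replicate 3.

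Mrgprx1, a receptor for peptides cut from proenkephalin, had 2.99, 3.09 and 3.86 CPM in NPP_solvent and 1.75, 2.83 and 1.32 in Sham_solvent. Every NPP_solvent library lay above every Sham_solvent library. The log2 fold change was 0.74 ± 0.40 (edgeR adjusted p = 0.755), and 0.43 with the length measure described below as a covariate. Mrgpre had 49.3, 55.7 and 46.7 CPM in NPP_solvent and 39.9, 44 and 46.3 in Sham_solvent. These groups did not overlap either, by a margin between 46.3 and 46.7, with a log2 fold change of 0.22 ± 0.10 (edgeR adjusted p = 0.755).

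The other 4 tested receptors differed less from their error. Mrgprb4 had a log2 fold change of 0.18 ± 0.14 and Mrgprb5 one of 0.28 ± 0.85. Mrgprf was at 0.01 ± 0.22 and Mrgprx3 at -0.08 ± 0.19; the sign of Mrgprx3 turned on the FPKM scale with pseudocount 0.1 (0.0034). Of the 7 tested receptors 6 had a higher fitted mean in NPP_solvent and 1 a lower one, with a median log2 fold change of 0.22 against 0.01 over all genes tested. None was called (0% of all genes) and none had an unadjusted p under 0.05 (5.67% of all genes). The 2 receptors with non-overlapping groups were both higher in NPP_solvent, as were 4.44% of all genes.

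**Figure D2:**
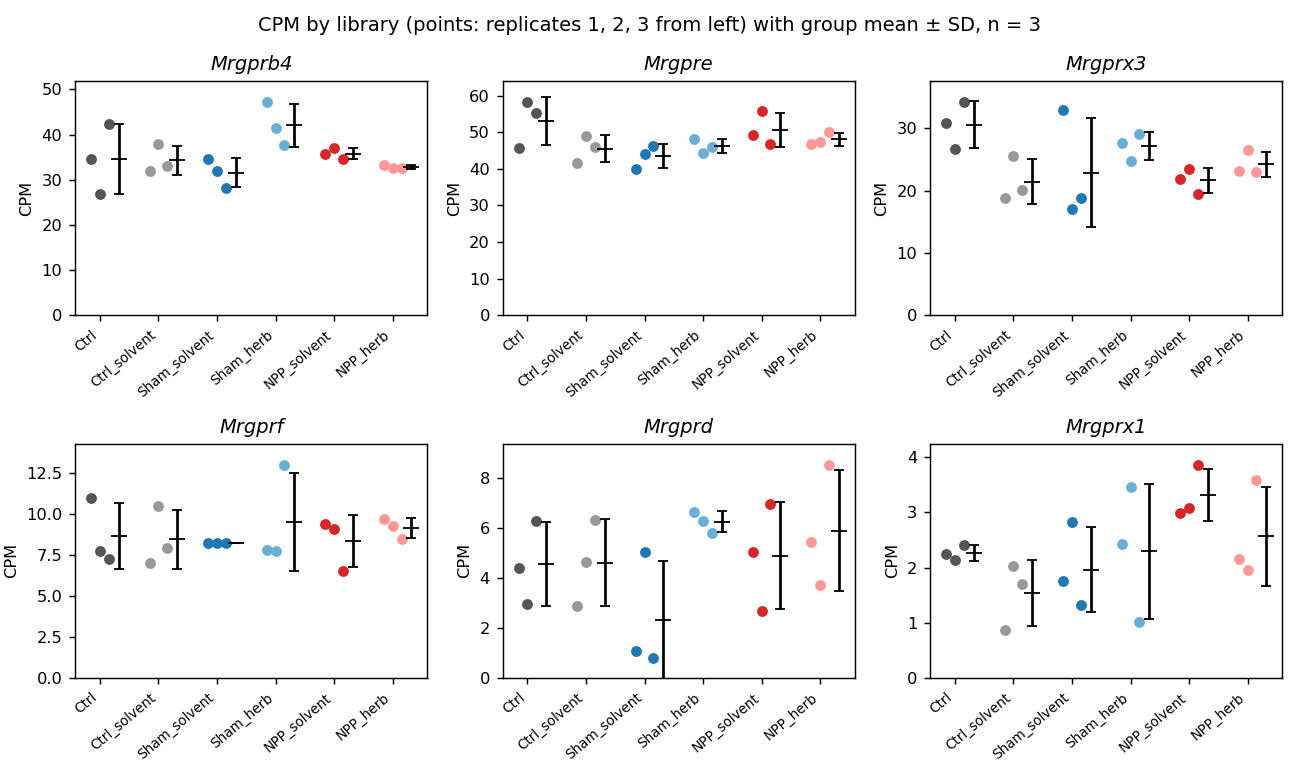
CPM of the 6 best-expressed receptor genes by group, with 1 point per library and the mean ± SD of 3 libraries beside it; the lower bar of Mrgprd in Sham_solvent is cut at 0. Mrgprd is low in Sham_solvent replicates 1 and 3, Mrgprx1 has its highest mean in NPP_solvent (3.31) and Mrgprb4 in Sham_herb (42.1).

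With the decoction in the neuropathic pain groups, NPP_herb against NPP_solvent, no receptor moved beyond its error. Mrgprb4 had 33.4, 32.6 and 32.5 CPM in NPP_herb and 35.7, 37.0 and 34.5 in NPP_solvent. The herb libraries all lay lower, a difference of -0.12 ± 0.14 on the log2 scale (edgeR adjusted p = 1). Mrgprd was at 0.27 ± 0.55, Mrgprx1 at -0.35 ± 0.40, Mrgprx3 at 0.16 ± 0.19, Mrgprf at 0.13 ± 0.22, Mrgpre at -0.07 ± 0.10 and Mrgprb5 at -0.86 ± 0.92. Thus 3 of 7 were higher and 4 lower, with a median of -0.07 against -0.01 over all genes. None was called (0% of all genes), none had an unadjusted p under 0.05 (1.87% of all genes), and Mrgprb4 alone had non-overlapping groups (2.61% of all genes in that direction).

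With the decoction in the sham groups, Sham_herb against Sham_solvent, Mrgprb4 and Mrgprd were higher in every herb library than in any solvent library. Mrgprb4 had 47.1, 41.4 and 37.8 CPM in Sham_herb and 34.5, 32 and 28.2 in Sham_solvent. All 3 herb libraries lay above all 3 solvent libraries, with a log2 fold change of 0.42 ± 0.14 (edgeR adjusted p = 0.491). Leaving out any one library kept it between 0.33 and 0.48.

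Mrgprd had 6.65, 6.30 and 5.82 CPM in Sham_herb, above the 3 Sham_solvent values given before. The log2 fold change was 1.39 ± 0.56 (edgeR adjusted p = 0.491). The gap was narrow against Sham_solvent replicate 2 and wide against the other 2 libraries: the value was 2.75 without replicate 2 (adjusted p = 0.0545), 1.06 without replicate 1 and 0.99 without replicate 3.

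Mrgprx3 followed at 0.25 ± 0.19, Mrgprf at 0.21 ± 0.22, Mrgprx1 at 0.21 ± 0.40, Mrgprb5 at 0.54 ± 0.84 and Mrgpre at 0.09 ± 0.10. So 7 of 7 tested receptors had a higher fitted mean in Sham_herb, except that Mrgprx1 was at -0.23 with the length measure as a covariate. The median was 0.25 against 0.01 over all genes. None was called (0% of all genes), 2 had an unadjusted p under 0.05 (9.89% of all genes), and the same 2 had non-overlapping groups with Sham_herb higher (8.52% of all genes). Of 7 lists of non-neuronal cell types, 3 went mostly the other way in this comparison, with 13 of 14 tested mast cell genes lower (median -1.06), 11 of 12 macrophage genes lower (median -0.60) and 10 of 10 fibroblast genes lower (median -0.47). The summed fibroblast list ran from 1280 to 1520 CPM in Sham_herb and from 1680 to 1980 in Sham_solvent, and the macrophage list from 231 to 530 and from 346 to 902. The summed mast cell list, of which Kit alone, a gene also on the peptidergic nociceptor list, had a mean of 44 CPM over all libraries, ran from 54.9 to 58.3 and from 55.9 to 62. The part of these cells in the receptor values was not tested.

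Summed over the 10 receptors, Sham_herb had 71.5 ± 4.41 FPKM and Sham_solvent 53.8 ± 4.67 (n = 3 each), with ranges of 67.4 to 76.2 and 48.4 to 56.7. The other groups lay between, with NPP_solvent at 63.5 ± 0.704, NPP_herb at 61.7 ± 3.85, Ctrl at 64.4 ± 9.05 and Ctrl_solvent at 60.1 ± 6.55. Mrgprb4 made up between 44.5% and 56.8% of this sum, so the sum largely follows its level.

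The herb difference of Mrgprb4 in NPP minus that in Sham was -0.54 ± 0.19 on the log2 scale (edgeR adjusted p = 0.92). All 7 receptors had a negative difference of differences, with a median of -0.54 against -0.02 over all genes; 0% of all genes were called and 1 receptor had an unadjusted p under 0.05, as had 3.4% of all genes. In the direct comparison of NPP_herb with Sham_herb, Mrgprb4 was at -0.36 ± 0.14 (edgeR adjusted p = 1). Again no receptor was called (0%), 1 had an unadjusted p under 0.05 (1.4% of all genes), and 2, Mrgprb4 and Mrgprb5, had non-overlapping groups with NPP_herb lower (4.17% of all genes). These comparisons share libraries with the sham and pain comparisons above and are not independent of them.

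In the comparison of sham with control, both with solvent, Mrgprd was the receptor farthest from 0 relative to its error. In Sham_solvent against Ctrl_solvent, Mrgprd had 2.87, 4.65 and 6.34 CPM in Ctrl_solvent, all above Sham_solvent replicates 1 and 3 and 2 of them below replicate 2, and the log2 fold change was -0.96 ± 0.56 (edgeR adjusted p = 0.888). It was -2.31 without Sham_solvent replicate 2, -0.62 without replicate 1 and -0.56 without replicate 3. The rest were at 0.84 ± 0.95 (Mrgprb5), 0.35 ± 0.41 (Mrgprx1), -0.12 ± 0.14 (Mrgprb4), 0.09 ± 0.19 (Mrgprx3), -0.07 ± 0.10 (Mrgpre) and -0.04 ± 0.22 (Mrgprf). The sign of Mrgprx3 turned on the FPKM scale. Beside these, 11 of 12 macrophage genes (median -0.91) and 14 of 14 injury genes (median -0.86) were lower in Sham_solvent, and their part was not tested. Of 7, 3 were higher and 4 lower; 0 were called (0% of all genes), 0 had an unadjusted p under 0.05 (6.12%) and 0 had non-overlapping groups (7.14%).

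Mrgprx3, described in the rat as an adenine receptor, lay lower with solvent within the Ctrl condition. It had 30.9, 26.6 and 34.2 CPM in Ctrl and 18.7, 25.6 and 20.04 in Ctrl_solvent. The groups did not overlap, and the log2 fold change was -0.51 ± 0.19 (edgeR adjusted p = 0.267). Ctrl replicates 2 and 3 are the libraries low in Y-linked reads, and without them, with 1 Ctrl library left and its spread taken from the other groups, the value was -0.53 ± 0.28 (edgeR adjusted p = 0.925). With the Y-linked level as a covariate it was -0.54 ± 0.28 (edgeR adjusted p = 0.993). Markers of other cells differed in the same comparison: 12 of 12 macrophage genes were higher in Ctrl_solvent, 11 with an unadjusted p under 0.05, with a median of 1.80, and the summed list ran from 205 to 459 CPM in Ctrl and from 395 to 1400 in Ctrl_solvent. Of 14 injury genes 13 were higher there, with a median of 1.13, and of 14 tested mast cell genes 10 were lower, with a median of -0.51. Their part in the Mrgprx3 value was not tested. Of 7 receptors 1 was higher and 6 lower; none was called (0%), 1 had an unadjusted p under 0.05 (13% of all genes), and 2, Mrgprx3 and Mrgprx1, had non-overlapping groups with Ctrl_solvent lower (8.15%).

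Mrgprx1 was the receptor that separated NPP_solvent from Ctrl_solvent, whose libraries had 0.866, 2.03 and 1.71 CPM. All 3 NPP_solvent values, 2.99 and above, exceeded them, with a log2 fold change of 1.09 ± 0.41 (edgeR adjusted p = 0.704). None of the 7 was called (0%), 1 had an unadjusted p under 0.05 (5.5% of all genes), and the same 1 had non-overlapping groups with NPP_solvent higher (3.45%). Beside it, 12 of 12 macrophage genes were lower in NPP_solvent than in Ctrl_solvent (median -0.74), whose part was not tested. This comparison shares NPP_solvent with the one against Sham_solvent.

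**Figure D3:**
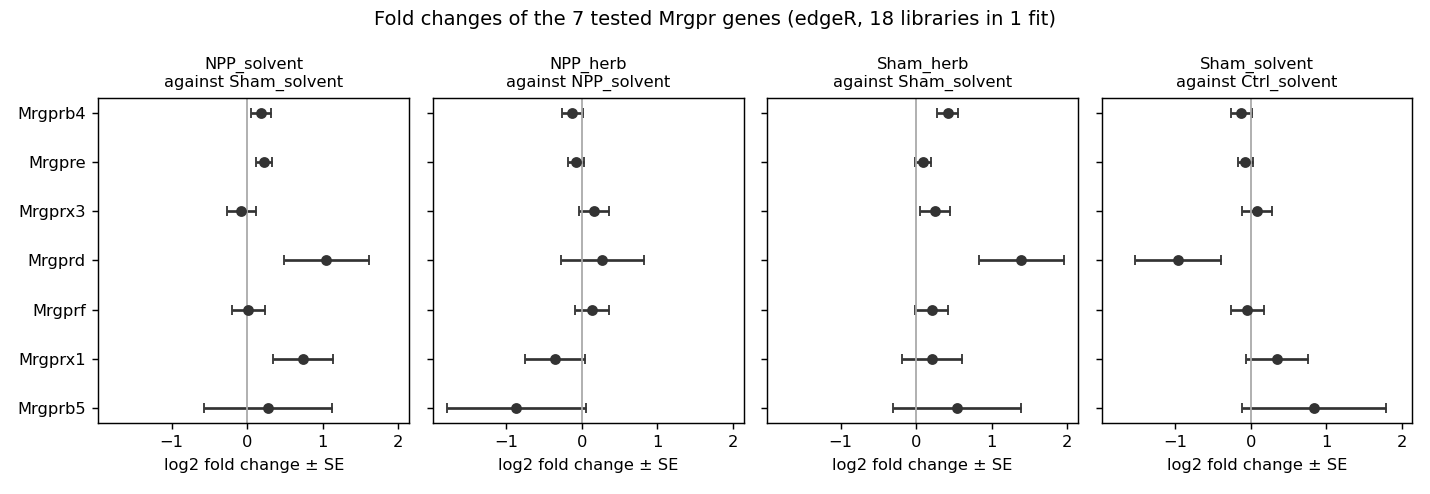
Log2 fold change ± SE of the 7 tested receptor genes in 4 comparisons, from 1 edgeR fit of 18 libraries. The point farthest from 0 is Mrgprd in Sham_herb against Sham_solvent at 1.39.

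The fixed list of nonpeptidergic nociceptor genes gave the surroundings of Mrgprd and Mrgprb4. In NPP_solvent against Sham_solvent, 14 of its 16 tested genes were higher, against 8750 of 17043 over all genes, 4 with an unadjusted p under 0.05 (5.67% of all genes), and the median was 0.24. In Sham_herb against Sham_solvent, 16 of 16 were higher, against 8637 of 17043, 8 with an unadjusted p under 0.05 (9.89% of all genes), and the median was 0.32; none was called in either. Both comparisons share the Sham_solvent libraries, where 13 of 16 were lower than in Ctrl_solvent (median -0.11). In NPP_solvent against Ctrl_solvent 13 of 16 were higher (median 0.105), and in NPP_herb against NPP_solvent 12 of 16 were lower (median -0.05). The mean centred level of the list was -0.211, -0.064 and -0.208 in Sham_solvent replicates 1 to 3. The summed list ran from 2360 to 2610 CPM in Sham_solvent and from 3020 to 3060 in Sham_herb. Acp3, the acid phosphatase of these neurons, had a log2 fold change of 0.34 ± 0.13 in NPP_solvent against Sham_solvent, and Cd55 had 0.58 ± 0.24, both at an edgeR adjusted p of 0.755; these had the smallest p of the list. By level the list was led by Synpr (99.1 FPKM) and the ATP-gated channel P2rx3 (92.4 FPKM), both above Mrgprb4. The shift was not particular to this list. Of 11 tested peptidergic nociceptor genes, 10 were higher in NPP_solvent against Sham_solvent (median 0.24). In Sham_herb against Sham_solvent 7 of 11 were higher (median 0.13), and in NPP_solvent against Ctrl_solvent 11 of 11 (median 0.31). In NPP_herb against NPP_solvent 9 of 11 were lower (median -0.08), and in Sham_solvent against Ctrl_solvent 6 of 11 (median -0.01).

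Receptor level was set against 5 cell type lists over 18 libraries, in 35 relations, of which 2 had an adjusted p under 0.05. Mrgprd followed the nonpeptidergic list with r = 0.75 (permutation p = 0.00017, adjusted p = 0.00595) and rho = 0.75 (p = 0.00042, adjusted p = 0.0147). Without the 2 farthest libraries r was 0.79, and 0.63 after group means were removed. Mrgprb4 followed the same list with r = 0.68 (p = 0.00148, adjusted p = 0.0259) and rho = 0.63 (p = 0.00572, adjusted p = 0.0667), with 0.64 and 0.54 in the same checks. Mrgprx1 came next with 0.55 (adjusted p = 0.121), then Mrgpre with the peptidergic list (0.54, adjusted p = 0.121) and Mrgprb4 with the mast cell list (-0.54, adjusted p = 0.121). Against the general neuronal list Mrgprd gave 0.04, and Mrgprf against the smooth muscle list gave 0.08. Of 21 relations between receptors 16 were positive and none had an adjusted p under 0.05; after Mrgprb4 with Mrgprb5 came Mrgprx3 with Mrgprb5 (0.49), Mrgprb4 with Mrgprd (0.47), Mrgprd with Mrgprx1 (0.46) and Mrgprb4 with Mrgprx3 (0.45).

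**Figure D4:**
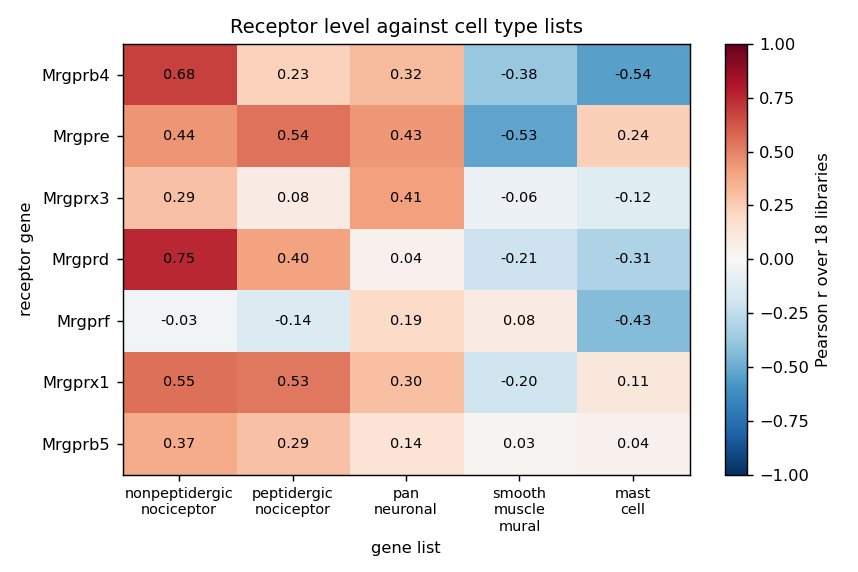
Pearson r over 18 libraries of each of the 7 tested receptor genes with the mean level of 5 cell type gene lists. The 2 relations past adjustment are Mrgprd (0.75) and Mrgprb4 (0.68) with the nonpeptidergic nociceptor list.

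Mrgprd also moved with a property of whole libraries. A length index was added after the data were seen, and its p-values take no account of that choice. For each library it took the median log2 deviation of 2791 genes with long transcripts (above 6230 bases). From this it subtracted that of 2791 with short ones (below 2290 bases). It was -0.512 in Sham_solvent replicate 1 and -0.267 in replicate 3, the libraries lowest in Mrgprd, and 0.239 in replicate 2. The highest values were 0.388 in NPP_solvent replicate 3 and 0.346 in NPP_herb replicate 3, which were also the 2 libraries with most Mrgprd, at 6.99 and 8.53 CPM. Ctrl replicate 2 had an index of -0.27 with 2.96 CPM of Mrgprd.

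Over 18 libraries Mrgprd correlated with the index at r = 0.84 (permutation p = 1e-05, the smallest that 100000 resamples can give, adjusted p = 0.00012 over 12 relations) and rho = 0.84 (p = 4e-05, adjusted p = 0.00048). It was 0.77 without the 2 libraries farthest from the median, 0.85 without Sham_solvent replicates 1 and 3, and 0.91 after group means were removed. The nonpeptidergic list gave 0.65 (p = 0.00376, adjusted p = 0.0226) with rho = 0.61 (p = 0.00828, adjusted p = 0.0497), and Mrgprx1 0.52 (adjusted p = 0.105). Mrgprb4 gave 0.32, Mrgpre 0.04 and the general neuronal list 0.05. The length implied for Mrgprd by counts and FPKM was 1070 bases. This is the length used for the FPKM, and the full transcript may be longer.

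With the index as a covariate in edgeR, Mrgprd had a log2 fold change of 0.57 ± 0.26 in NPP_solvent against Sham_solvent (adjusted p = 0.999), 0.76 ± 0.27 in Sham_herb against Sham_solvent (adjusted p = 1) and -0.97 ± 0.26 in Sham_solvent against Ctrl_solvent (adjusted p = 0.419). Mrgprb4 in Sham_herb against Sham_solvent stayed at 0.40 ± 0.15. The part of RNA quality or library preparation in these values was not tested.

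**Figure D5:**
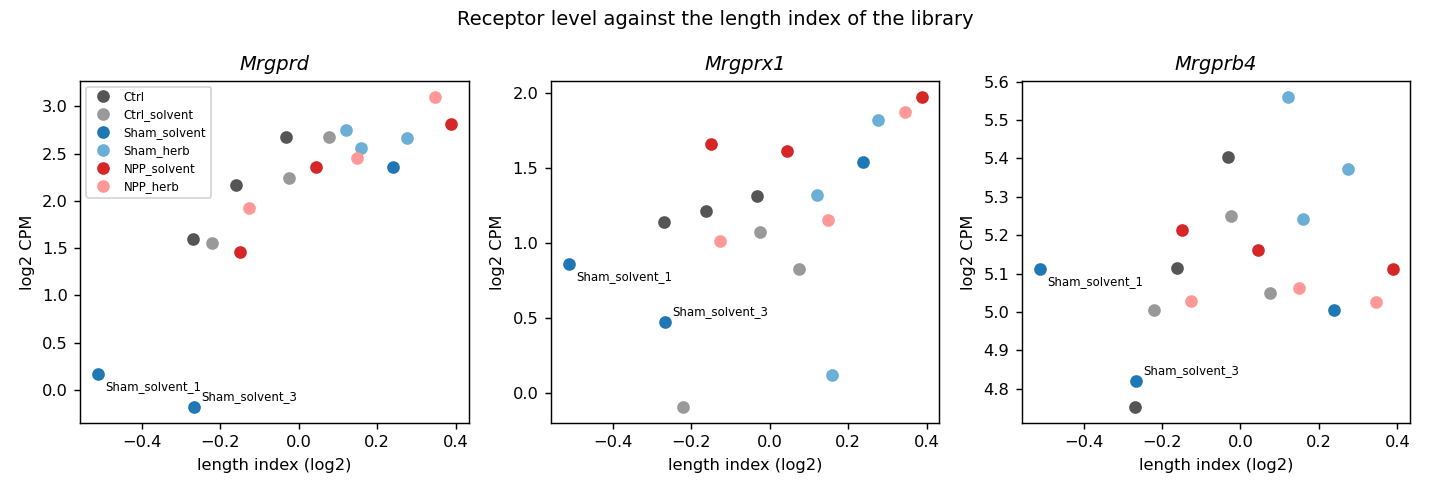
Level (log2 CPM) of Mrgprd, Mrgprx1 and Mrgprb4 against the length index of the library, with 1 point for each of 18 libraries coloured by group. Mrgprd rises with the index (r = 0.84) with Sham_solvent replicates 1 and 3 at the lower left, while r is 0.52 for Mrgprx1 and 0.32 for Mrgprb4.

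The genes whose pattern over 18 libraries was most like Mrgprd, out of 13166 compared and chosen after its values were seen, were Prpf8, a core splicing factor (r = 0.95), Arhgap1 (0.93), Mdn1, a ribosome assembly factor (0.93), Eif2ak1 (0.92) and Adgrb3 (0.92). Mrgprd had 311 genes with r over 0.8, with a median implied length of 6240 bases in the 279 that had one. It had 330 with r under -0.8, with a median of 1260 bases in 329. The median was 3860 over the 11162 genes used for the length index. Without Sham_solvent replicates 1 and 3 there were 223 genes over 0.8 and 185 under -0.8. The 5 other receptors compared in this way (Mrgprb4, Mrgpre, Mrgprx3, Mrgprf and Mrgprx1) had at most 9 genes over 0.8 with all 18 libraries, and at most 20 (Mrgpre) without those 2. For Mrgprb4 the 5 closest were Mindy3 (0.80), Gpr75 (0.76), B3galt1 (0.75), Zfp560 (0.75) and Lrrc8d (0.74). For Mrgpre they were Flot2 (0.87), MGC116202 (0.85), Fbxl2 (0.84), Dph2 (0.83) and Ckap4 (0.83), and for Mrgprx3 Porcn (0.84), Mtmr14 (0.81), Erg28 (0.78), Ppdpf (0.77) and Nrip2 (0.76).

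Genes that act upstream and downstream of the receptors were followed in NPP_solvent against Sham_solvent. Of 33 signalling genes (G protein subunits, phospholipases, channels, kinases that switch receptors off) 28 were higher and 5 lower, 7 with an unadjusted p under 0.05 (5.67% of all genes, of which 8750 of 17043 were higher), with a median of 0.19 against 0.01 over all genes. Trpv1, the capsaicin-gated channel, was at 0.51 ± 0.16 and the receptor kinase Grk3 at 0.34 ± 0.12, the pair with the smallest p of the list, both at an edgeR adjusted p of 0.755. Rgs4, a brake on G protein signalling, had the highest level of the list with 325 FPKM, followed by the inhibitory subunit Gnai2 with 159. The signalling list had 29 of 33 genes lower in Sham_solvent against Ctrl_solvent (median -0.15). In NPP_solvent against Ctrl_solvent 21 of 33 were higher (median 0.03). Its mean centred level was -0.404, 0.034 and -0.174 in Sham_solvent replicates 1 to 3. Of 10 tested lineage transcription factors 8 were higher in NPP_solvent against Sham_solvent, with a median of only 0.02. They included Prdm12 at 0.57 ± 0.24 and Runx1 at 0.25 ± 0.11, both at an edgeR adjusted p of 0.755. Of 13 itch neuron genes 9 were higher, with the irritant-gated channel Trpa1 at 0.99 ± 0.38 (edgeR adjusted p = 0.755). Of 15 tested precursors and processing enzymes of receptor ligands 7 were higher and 8 lower, with Adm at -0.73 ± 0.32 (edgeR adjusted p = 0.755). The 2 relatives Mas1 and Mas1l were at 0.104 and 0.223 FPKM, near the level of Mrgprb5.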

How the data were processed

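Polyadenylated RNA of rat dorsal root ganglia was sequenced on an Illumina NovaSeq after stranded KAPA library preparation, per the labels' protocols. Per the submitters' processing notes the tools include HISAT2 and DESeq2 (versions not given in the sources used here) and the build is mRatBN7.2. Which program counted reads, whether it used strand, and how it treated reads with several matches is likewise not given, so antisense and near-identical genes are uncertain. One table deposited by the authors gives raw counts for each gene, and another deposited by them gives FPKM. Counts were filtered with filterByExpr (17043 of 25678 genes left), scaled by TMM (0.946 to 1.04) and tested with the quasi-likelihood test of edgeR 4.0.16 in R 4.3.3, in 1 model of 18 libraries with 12 residual degrees of freedom and Benjamini-Hochberg adjustment over all genes (threshold 0.05). The procedure was run on simulated counts with planted changes. Genes varied independently there, so shifts shared by many genes of a library were not covered. Correlations were taken on log2 CPM (prior count 2) with 100000 permutations, 2-sided. Transcript length was implied from counts and FPKM. Alternatives were DESeq2 1.42.0, limma 3.58.1 on log2(FPKM + 0.1 or 1), other scaling and filtering, a replicate block, covariates and leaving out each library; the length index and the fit without Ctrl replicates 2 and 3 were added after the data were seen. All 10 receptors are described, with fold changes in 4 comparisons and elsewhere for an unadjusted p under 0.05; of each list, the 2 genes with the smallest p in NPP_solvent against Sham_solvent and the 2 with the highest FPKM were named where space allowed, and other genes only where the text says so. The receptors and lists were chosen with earlier results of these data known. Between any 2 replicates of a group the chi-square per degree of freedom was at least 12.1, so none was a repeat deposit. Depth, from 18.2 × 1e6 to 50.3 × 1e6 reads per library, limits the genes with few reads.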

Additional observations from a re-analysis of the deposited data

Results flagged for a closer look

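Mrgprb4 lay in opposite directions with the decoction in the Sham and NPP conditions, which is why it stands here. Every Sham_herb library lay above every Sham_solvent library (log2 fold change 0.42 ± 0.14), as for 8.52% of all genes. Every NPP_herb library lay below every NPP_solvent library (-0.12 ± 0.14), as for 2.61% of all genes. The change in NPP is smaller than its error, and the share of genes with both patterns was not counted. The difference of the 2 changes was -0.54 ± 0.19, and it did not pass adjustment over all genes (edgeR adjusted p = 0.92). Over leaving out each library it stayed between -0.6 and -0.45. Mrgprb4 was picked for non-overlapping groups in both conditions, so leaving out 1 library could hardly change the sign. The steady sign is therefore no support for the difference.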

How the results depend on the processing

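No receptor was called under any alternative tried; the smallest adjusted p was 0.0545, for Mrgprd in Sham_herb against Sham_solvent without Sham_solvent replicate 2. Of 484 alternative values of receptor fold changes, 457 kept their direction and side of the threshold and 27 changed sign. Mrgprx3 changed sign on log2(FPKM + 0.1) in NPP_solvent against Sham_solvent (0.0034) and in Sham_solvent against Ctrl_solvent (-0.01; -0.0043 on log2(FPKM + 1)). With the length index as a covariate, Mrgprx3 was at 0.13 and -0.04 in these 2 comparisons and Mrgprx1 at -0.23 in Sham_herb against Sham_solvent. The cause was not tested.

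Leaving out each library in turn gave the ranges that follow. In NPP_solvent against Sham_solvent a sign changed for Mrgprf (-0.08 to 0.17), Mrgprx3 (-0.25 to 0.27) and Mrgprb5 (-0.68 to 2.31), and a value moved by over 1.5 times with its sign kept for Mrgprb4 (0.1 to 0.24), Mrgprd (0.65 to 2.4) and Mrgprx1 (0.52 to 1.12, the highest without Sham_solvent replicate 2). In NPP_herb against NPP_solvent a sign changed for Mrgprf (-0.02 to 0.23), Mrgpre (-0.13 to 0.00048), Mrgprb5 (-1.25 to 0.09) and Mrgprd (-0.1 to 0.62), and a value moved so for Mrgprx1 (-0.69 to -0.19) and Mrgprx3 (0.09 to 0.23). In Sham_herb against Sham_solvent a sign changed for Mrgprf (-0.09 to 0.33), Mrgprx1 (-0.21 to 0.58) and Mrgprb5 (-0.01 to 2.57), and a value moved so for Mrgpre (0.03 to 0.13), Mrgprx3 (0.07 to 0.59) and Mrgprd (0.99 to 2.75). In Sham_solvent against Ctrl_solvent a sign changed for Mrgprf (-0.16 to 0.14), Mrgpre (-0.13 to 0.0011), Mrgprx3 (-0.25 to 0.26), Mrgprx1 (-0.03 to 0.61) and Mrgprb5 (-1.19 to 1.39), and a value moved so for Mrgprb4 (-0.18 to -0.03) and Mrgprd (-2.31 to -0.56).

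The count of genes called, 0 in all 8 comparisons with edgeR, was 471 with DESeq2 in Ctrl_solvent against Ctrl, 40 in NPP_solvent against Ctrl_solvent, 35 in Sham_solvent against Ctrl_solvent, 3 in the difference of herb effects, 2 in NPP_herb against Sham_herb and 1 in NPP_herb against NPP_solvent. In Ctrl_solvent against Ctrl it was 1 without the filter, 1 with limma at either pseudocount and 1 with the length index. In NPP_herb against Sham_herb it was 1 with the Y-linked covariate. Leaving out each library gave 0 to 734 calls in Ctrl_solvent against Ctrl, 0 to 252 in Sham_solvent against Ctrl_solvent and 0 to 188 in NPP_solvent against Ctrl_solvent, the highest each time without Ctrl_solvent replicate 2, and 0 to 2 in NPP_herb against Sham_herb and 0 to 1 in the difference of herb effects. At an unadjusted p under 0.05 edgeR had 967 genes in NPP_solvent against Sham_solvent, where DESeq2 also called 0. With the replicate block the count was 0 in every comparison. The labels give same-numbered samples only a common number. Of 21 pairs 5 had a correlation of deviations over 0.1 (range -0.282 to 0.231). The same number was the best match for every replicate in NPP_herb against NPP_solvent (0.0745, 0.185 and 0.231). It was so for replicates 1 and 2 in Sham_herb against Sham_solvent, and elsewhere only for replicate 3 of NPP_solvent against Sham_solvent. Whether the number marks a pair or batch is not given. Ordered by CPM in place of FPKM, Mrgpre ranked 1, Mrgprb4 2, Mrgprf 4 and Mrgprd 5.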
